A study of Homo sapiens with 21 samples.

Results

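Cancer-testis antigen genes were examined by sequencing poly-A selected RNA of the human melanoma line SK-MEL-147. The members were all genes of the deposited table whose symbols mark the MAGEA, MAGEB, MAGEC, GAGE, XAGE, PAGE, SSX or CTAG families, together with PRAME, which gave 77 of 26475 genes. Of these, 20 had 10 or more counts in at least 3 libraries and were tested. Untreated cells were compared with cells treated with JQ-1, TP-472, GSK-591, MS023, GSK-484 or UNC0642, with 3 libraries in each of the 7 groups (21 in all). All groups are the same cell line, each is described by the submitters as biological replicates, and whether replicates came from separate cultures is not given, so the p-values reflect no more than the spread among these libraries. JQ-1 binds the BET bromodomain proteins, which read acetylated histones, and TP-472 is a bromodomain inhibitor selective for BRD9 with activity on BRD7. GSK-591 blocks PRMT5 and MS023 blocks the type I PRMT enzymes, both of which methylate arginine. GSK-484 blocks PAD4, which turns arginine into citrulline, and UNC0642 blocks G9a and GLP, the enzymes of EHMT2 and EHMT1 that methylate histone H3. The labels give no dose, treatment time or vehicle.

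Cancer-testis antigen genes are normally transcribed in germ cells and are silent in most adult tissues, where methylation of CpG pairs in their promoters helps to keep them off. Many tumours, melanoma among them, transcribe some of them again, and peptides from their proteins can be seen by T cells. MAGE proteins bind RING-type E3 ubiquitin ligases, for example TRIM28, and PRAME is a substrate receptor of a cullin ubiquitin ligase and a repressor of retinoic acid receptor signalling. Most of the genes lie on the X chromosome in clusters of near-identical copies, while PRAME lies on chromosome 22.

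Sequences upstream of 5 expressed members are shown so that their windows can be compared. Given are the 150 bases before the first start listed by RefSeq (GRCh38.p14), 5′ to 3′ on the strand of the gene. These are MAGEA3 (chrX:152698644-152698793, plus strand), MAGEA4 (chrX:151912324-151912473, plus), MAGEA12 (chrX:152733607-152733756, plus), PRAME (chr22:22559266-22559415, minus) and XAGE1B (chrX:52517013-52517162, minus). In the MAGEA windows the capitals mark the 2 longest runs of bases, equal in length, common to the 6 MAGEA windows of tested genes in the table, and in PRAME and XAGE1B they mark the ETS core GGAAG or its reverse complement. The window of MAGEA6 is the same as that of MAGEA3 at 150 of 150 positions, so it is not shown again. In GENCODE 29 the outermost start of MAGEA3, MAGEA6 and PRAME lies inside the window, and that of XAGE1B lies upstream of it.

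MAGEA3: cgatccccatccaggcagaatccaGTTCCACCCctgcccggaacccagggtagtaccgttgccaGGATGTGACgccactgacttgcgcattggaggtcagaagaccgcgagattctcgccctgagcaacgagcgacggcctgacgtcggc

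MAGEA4: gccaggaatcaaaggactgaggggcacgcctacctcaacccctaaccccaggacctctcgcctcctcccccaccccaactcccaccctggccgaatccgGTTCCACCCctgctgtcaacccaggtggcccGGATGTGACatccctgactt

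MAGEA12: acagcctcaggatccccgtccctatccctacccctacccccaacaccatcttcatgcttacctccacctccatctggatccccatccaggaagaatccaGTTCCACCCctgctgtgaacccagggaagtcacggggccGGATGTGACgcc

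PRAME: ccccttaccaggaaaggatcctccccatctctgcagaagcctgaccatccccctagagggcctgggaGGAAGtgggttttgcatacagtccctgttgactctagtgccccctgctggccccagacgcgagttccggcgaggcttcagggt

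XAGE1B: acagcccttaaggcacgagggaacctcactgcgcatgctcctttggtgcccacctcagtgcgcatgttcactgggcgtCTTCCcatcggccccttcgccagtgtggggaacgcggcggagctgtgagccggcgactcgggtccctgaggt

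The runs GGATGTGAC and GTTCCACCC, of 9 bases each, were common to the windows of MAGEA2, MAGEA2B, MAGEA3, MAGEA4, MAGEA6 and MAGEA12. Of 27305 RefSeq promoter windows of the same length, 58 held the first on either strand (0.212%) and 53 the second (0.194%). Compared position by position with no alignment, the window of MAGEA12 matched that of MAGEA4 at 44.7% of bases and that of MAGEA3 at 34.7%, and MAGEA3 matched MAGEA4 at 24.7%. These values depend on where each start was placed and do not rank similarity. The windows of MAGEA2 and MAGEA2B, which hold a long common stretch at different offsets, matched at 30.7%. The ETS core was counted on both strands, and 48.6% of all windows held it. It occurred 2 times in the window of MAGEA12, 1 time in those of PRAME and XAGE1B, and 0 times in those of MAGEA3, MAGEA4 and MAGEA6. The Sp1 box GGGCGG, on both strands, was in none of the windows printed and in 36.7% of all windows. The TATA motif TATAAA was likewise in none of them and in 4.89% of all. CpG pairs numbered 13 in MAGEA3 and MAGEA6, 12 in XAGE1B, 5 in MAGEA4 and 4 each in MAGEA12 and PRAME, against a median of 7 over all windows. A match here describes letters only. No window of MAGEA1 or MAGEA10 was in the table used.

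The copies also share transcript sequence, and RSEM divides a read that fits several copies among them, which leaves fractional expected counts. Of the 20 tested members, 17 had a fractional count in at least 1 library, and PRAME, PAGE1 and SSX2IP had whole counts in every library. In GENCODE 29, 54.5% of the 50-base stretches of the MAGEA3 transcript also occur in MAGEA6, and all of those of MAGEA2 occur in MAGEA2B. XAGE1B and XAGE1E had identical expected counts in every library, so they are 2 members but 1 measurement. By contrast, 3.6% of such stretches of MAGEA4 and 0.662% of those of MAGEA1 occur in any other gene. The values of members with fractional counts are therefore uncertain as to copy. Exons of MAGEA10 overlap those of its read-through transcript with MAGEA5, exons of MAGEA12 overlap CSAG4, and exons of MAGEA4 and PRAME overlap a gene on the opposite strand. Whether the counting used strand is not stated in the labels or the file, so overlapping pairs cannot be told apart.

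Each library held between 20978182 and 78776788 expected counts in total. No pair of replicates held identical values, and the common coefficient of variation between replicates was 5.09%. The untreated libraries stood apart in base composition. CPM is the TMM-scaled count relative to the library total. For each library, log2 CPM less the mean of each gene over the 21 libraries was regressed on transcript GC content. The slope was -0.18 to -0.097 per 10 percentage points in the 3 untreated libraries and -0.038 to 0.13 in the 18 treated ones. It is thus relative to the average library. Results are therefore given also after removal of this trend, and with treated libraries as the reference. Of the melanoma markers, SOX10 was at 350 to 604 CPM and MITF at 9.25 to 19.0 CPM, while the other 7, MLANA, PMEL, TYR, DCT, TYRP1, S100B and S100A1, stayed under 1 CPM in every library. Of the markers of dedifferentiated melanoma, AXL was at 1770 to 2070 CPM. All 9 germ cell markers, among them DDX4 and DAZL, stayed under 1 CPM in every library, with summed levels of 0.205 to 0.762 CPM. Summed markers of other cell types reached 35.5 CPM for keratinocytes, of which KRT10 made up nearly all, and 10.7 CPM for fibroblasts. They reached 164 CPM for immune cells, of which CD68 made up nearly all, and 0.981 CPM for endothelial cells.

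The MAGEA family and PRAME made up most of the RNA of the 77 members in this line. The sum of the members includes SSX2IP, at 49.3 ± 3.33 CPM in untreated cells (SD, n = 3), which is no antigen gene. It leaves out cancer-testis genes of other families. In untreated cells the 77 members summed to 895.2 ± 16.3 CPM (SD, n = 3), of which MAGEA genes held 70.1% and PRAME 22.3%. PRAME was at 198.9 to 201.7 CPM, MAGEA10 at 161.9 ± 5.93, MAGEA4 at 116.0 ± 1.77, MAGEA3 at 107.4 ± 5.10, MAGEA6 at 97.5 ± 5.54, MAGEA12 at 62.0 ± 3.56 and MAGEA1 at 49.7 ± 1.08 CPM. Per kilobase of the longest transcript, PRAME was highest at 70.6 ± 0.531 CPM per kb, followed by MAGEA4 (65.4 ± 1.0), MAGEA3 (61.0 ± 2.90), MAGEA10 (59.1 ± 2.16) and MAGEA6 (55.3 ± 3.15). MAGEA3 and MAGEA10, and MAGEA10 and MAGEA6, differ by less than the sum of their SDs, so the order of these neighbours is not resolved. Then came MAGEA12 (35.2 ± 2.02) and MAGEA1 (29.1 ± 0.630). PRAME ranked 683 and MAGEA1 ranked 1950 of the 14305 tested genes with a known transcript length.

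The other families held few counts, except that XAGE1B and XAGE1E summed to 12.9 ± 1.33 CPM in untreated cells (SD, n = 3) and that SSX2IP was at 49.3 ± 3.33 CPM. No MAGEB (10 genes), MAGEC (3) or CTAG (3, including the NY-ESO-1 genes CTAG1A and CTAG1B) member passed the count filter, and their highest count in any library was 7. Of 22 GAGE genes 2 passed, of 5 XAGE genes 2, of 6 PAGE genes 3, of 12 SSX genes 3 and of 15 MAGEA genes 9. The 3 SSX genes include SSX2IP, which lies on chromosome 1, encodes a protein that binds SSX2 and is no antigen gene, but its symbol fits the rule. Among the 57 members not tested, 17 had no count in any library, and the highest count of any of them in a library was 32.03. That was GAGE12I in an MS023 library, a copy whose reads are divided with the rest of its family. Summed over all 57, the level was 0.721 ± 0.106 CPM in untreated cells and between 0.577 ± 0.100 (TP-472) and 0.905 ± 0.407 CPM (MS023) in the treated groups (n = 3 each), and the mean stayed under 1 CPM in every group. The plot of counts by family shows this split.

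**Figure D1:**
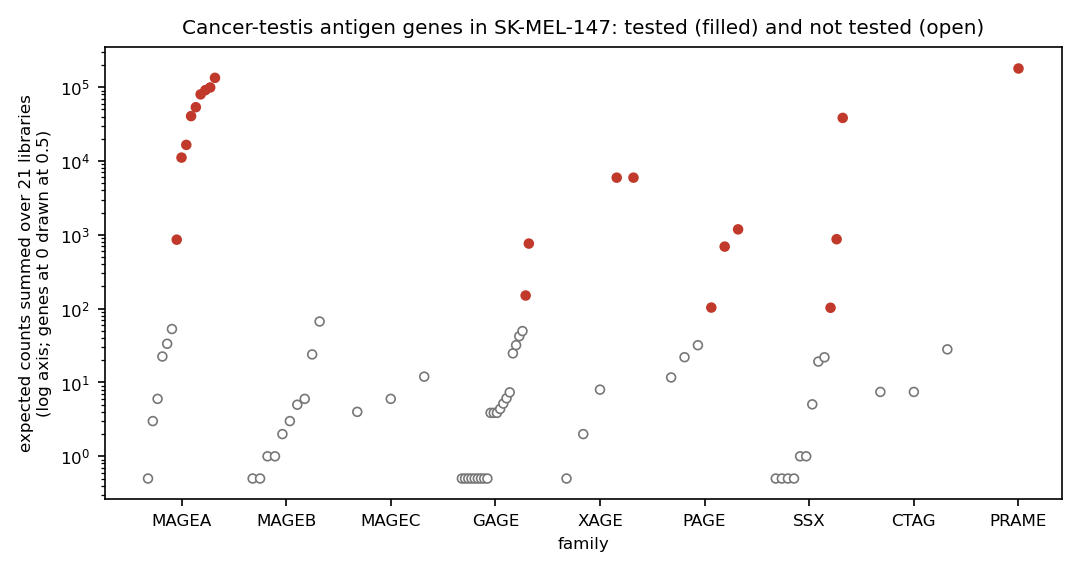
Expected counts summed over the 21 libraries for each of the 77 members, by family, on a log axis; filled points are the 20 tested members, open points the 57 not tested, and genes with no count are drawn at 0.5. MAGEA genes and PRAME hold the highest counts, and no MAGEB, MAGEC or CTAG member is filled.

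With JQ-1, some of the expressed members rose and others fell. PRAME, MAGEA10, the MAGEA10-MAGEA5 read-through and XAGE1B/XAGE1E rose, and MAGEA1, MAGEA3, MAGEA4 and MAGEA6 fell, each by less than 1.5-fold except the low read-through. With edgeR's quasi-likelihood test, adjusted over all 15287 genes tested (Benjamini-Hochberg) and called under 0.05, 5 of the 20 members were higher and 6 lower, while 35.4% of all genes tested were called higher and 37.2% lower. The median log2 fold change was 0.014 over the 20 members and -0.0077 over all genes tested. A share of 55.0% of members called is thus below the share over all genes. Of the members not called, GAGE2A, GAGE7, PAGE1, PAGE2B, PAGE5 and SSX6 had group means of at most 1.63 CPM. Whether the lower share reflects such low counts was not tested, so it is not read as a result about the members. With near-identical copies summed before the fit, 10 of 17 were called. On the X chromosome as a whole, 165 of 523 tested genes rose and 198 fell (median -0.066). Against the mean of the other 5 compounds, which does not use the untreated libraries, 5 members were higher and 6 lower, beside 38% and 39.2% of all genes. Both comparisons share the JQ-1 libraries. How many of all genes had their JQ-1 libraries apart from all 18 others was not counted. Where this is given below, it describes single genes and is no trait of the members. In bulk RNA, fewer cells that express a gene and less RNA per cell cannot be told apart.

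PRAME read 199.3, 198.9 and 201.7 CPM in the untreated libraries and 271.5, 276.5 and 273.2 CPM with JQ-1. The lowest, median and highest of the 15 libraries of the other 5 compounds were 196.5, 211.9 and 237.3 CPM, so the JQ-1 libraries lay above all 18 others. The log2 fold change with JQ-1 was 0.45 (SE 0.0364, adjusted p = 1.07e-10 by edgeR), a rise of 36.9%. It was 0.35 (SE 0.0275, adjusted p = 5.34e-11 by edgeR) against the other 5 compounds. PRAME is the only antigen gene among the abundant members with whole counts throughout and with no 50-base stretch shared with another gene.

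MAGEA10 read 163.6, 155.3 and 166.8 CPM in untreated cells and 197.9, 196.3 and 200.5 CPM with JQ-1, and the other 15 libraries ran from 142.0 to 158.8 CPM (median 153.8). The JQ-1 libraries were thus above all 18 others. The log2 fold change was 0.29 (SE 0.0329, adjusted p = 3.38e-08 by edgeR) against untreated cells and 0.39 (SE 0.0249) against the other 5 compounds. The read-through MAGEA10-MAGEA5, whose exons overlap MAGEA10, was low: 0.890, 1.07 and 0.745 CPM in untreated cells and 2.54, 1.60 and 2.23 CPM with JQ-1 (log2 fold change 1.237, SE 0.247, adjusted p = 0.000105 by edgeR). Reads of MAGEA10 and the read-through cannot be fully told apart, so the 2 rises are not independent.

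XAGE1B, with the same values as XAGE1E, read 5.67, 6.80 and 6.85 CPM in untreated cells and 10.1, 8.91 and 9.69 CPM with JQ-1. The other 15 libraries ran from 5.57 to 7.84 CPM (median 6.68), below all 3 JQ-1 libraries. The log2 fold change was 0.58 (SE 0.101, adjusted p = 2.26e-05 by edgeR). Summed, the pair of copies went from 12.9 ± 1.33 to 19.1 ± 1.2 CPM (SD, n = 3).

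Several MAGEA genes fell with JQ-1. MAGEA1 read 50.7, 48.6 and 49.8 CPM in untreated cells and 35.1, 37.7 and 37.2 CPM with JQ-1, while the other 15 libraries ran from 47.0 to 55.0 CPM (median 49.9). It fell by 0.44 on the log2 scale (SE 0.0447, adjusted p = 6.14e-09 by edgeR), or by 26.3%. MAGEA4 read 116.2, 114.1 and 117.7 CPM untreated and 100.5, 95.6 and 100.2 CPM with JQ-1, against 111.2 to 133.6 CPM (median 121.2) in the other 15, and fell by 0.23 on the log2 scale (SE 0.0414, adjusted p = 2.59e-05 by edgeR). In both genes the JQ-1 libraries were below all 18 others. Both share few 50-base stretches with other genes. In GENCODE 29 (GRCh38) MAGEA1 lies at chrX:153179285-153183880 and MAGEA4 at chrX:151912509-151925170.

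MAGEA3 and MAGEA6, with identical upstream windows, gave close values. MAGEA3 read 101.6, 111.3 and 109.3 CPM untreated and 86.7, 89.8 and 94.4 CPM with JQ-1, against 105.1 to 122.1 CPM (median 110.5) in the other 15. It fell by 0.25 on the log2 scale (SE 0.0531, adjusted p = 0.000202 by edgeR). MAGEA6 read 95.2, 93.4 and 103.8 CPM untreated and 80.75, 78.96 and 79.6 CPM with JQ-1, against 90.1 to 107.7 CPM (median 97.5) in the other 15, and fell by 0.29 (SE 0.0503, adjusted p = 2e-05 by edgeR). Summed, which does not depend on how their reads were divided between them, the pair went from 204.9 ± 8.13 to 170.0 ± 3.47 CPM (SD, n = 3; edgeR log2 fold change -0.27, adjusted p = 8.78e-06, an alternative chosen after seeing the data).

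MAGEA12 and MAGEA2 did not pass the test against untreated cells. MAGEA12 was at 62.0 ± 3.56 CPM untreated and 59.2 ± 1.71 with JQ-1 (log2 fold change -0.065, SE 0.0481, adjusted p = 0.232 by edgeR). It was lower with JQ-1 than with the other 5 compounds (log2 fold change -0.13, SE 0.0378, adjusted p = 0.00287 by edgeR), though its groups overlapped. MAGEA2 and MAGEA2B cannot be told apart, and their sum was 32.3 ± 1.55 CPM untreated and 30.9 ± 2.85 with JQ-1 (n = 3). The opposite changes left the summed level of all members close: 885.3 to 914.0 CPM in the untreated libraries and 932.3 to 939.7 CPM with JQ-1, slightly higher and without overlap. Within that sum the MAGEA share was 63.7% with JQ-1 against 70.1% untreated, and the PRAME share was 29.3% against 22.3%.

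The other called members were uncertain. SSX1, at about 1 CPM, read 1.41, 1.01 and 1.22 CPM untreated and 0.772, 0.757 and 0.756 CPM with JQ-1 (log2 fold change -0.68, SE 0.266, adjusted p = 0.0268 by edgeR). The call was lost in 7 of 20 alternatives, among them leaving out untreated replicate 1 (adjusted p = 0.107) and each JQ-1 library in turn (0.0552 to 0.0595), and it was not called against the other 5 compounds (adjusted p = 0.0756). SSX2IP read 53.2, 47.7 and 47.2 CPM untreated and 41.3, 42.4 and 41.7 CPM with JQ-1 (log2 fold change -0.24, SE 0.0547, adjusted p = 0.000433 by edgeR); with the GC trend removed the log2 fold change was -0.087 (adjusted p = 0.0757). The 8 tested members below 5 CPM, SSX1 and the read-through among them, reached at most 2.12 CPM as a group mean, and the GAGE genes summed to 1.04 ± 0.152 CPM untreated and 1.41 ± 0.211 with JQ-1 (n = 3).

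**Figure D2:**
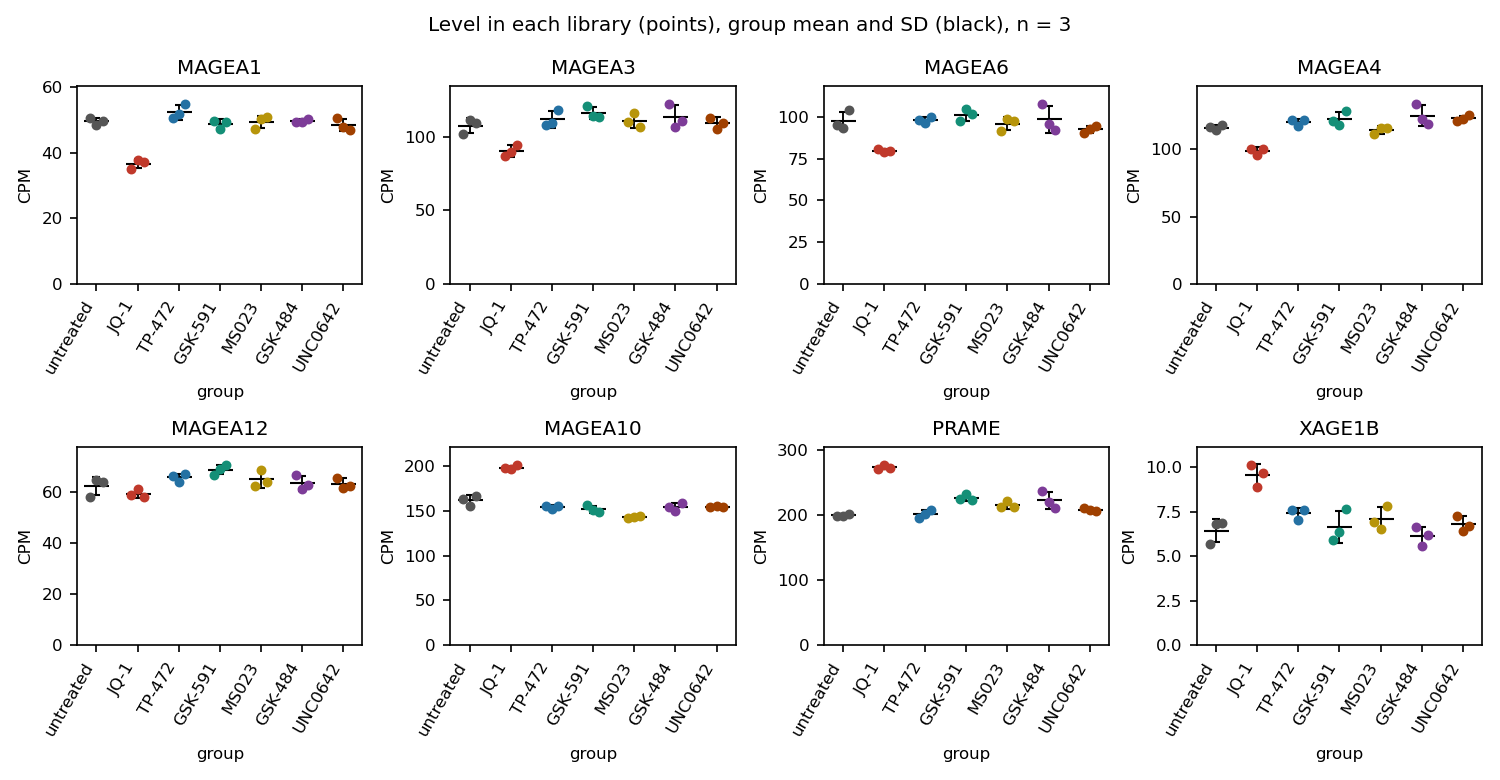
CPM in each library (points) with group mean and SD (black, n = 3) for 8 members, by group, on axes that start at 0. The JQ-1 points of MAGEA1, MAGEA3, MAGEA6 and MAGEA4 lie below all others, those of MAGEA10, PRAME and XAGE1B above all others, and those of MAGEA12 overlap the rest. The share of all genes that separate in this way was not counted.

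These rises and falls with JQ-1, of 9 members, 2 of which (XAGE1B and XAGE1E) are 1 measurement, were also called with the GC trend removed and, with that, against the other 5 compounds: MAGEA10, MAGEA10-MAGEA5, PRAME, XAGE1B and XAGE1E higher, and MAGEA1, MAGEA3, MAGEA4 and MAGEA6 lower. XAGE1E had no GC value, so no trend was removed from it, while XAGE1B with the same counts was corrected. With the GC trend removed, 5 members were higher and 5 lower against untreated cells, beside 73% of all genes called in either direction. Against the other 5 compounds in that fit, 5 were higher and 6 lower, beside 78%. With total counts in place of TMM scaling, the median of all genes moved from -0.0077 to -0.153 with JQ-1, and all 9 kept their direction and call. MAGEA10 was then at 0.15, MAGEA3 at -0.40, MAGEA4 at -0.38 and MAGEA6 at -0.43 on the log2 scale, each moved by over 1.5 times, as was SSX2IP, from -0.24 to -0.38.

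Few members were called with the other 5 compounds. Across the 10 members above 5 CPM (XAGE1E and SSX2IP aside), the log2 fold changes against untreated cells ran from -0.10 to 0.21 for TP-472, from -0.093 to 0.18 for GSK-591, from -0.18 to 0.26 for MS023, from -0.20 to 0.32 for GSK-484 and from -0.18 to 0.12 for UNC0642. Both ends of the range with TP-472, GSK-484 and UNC0642, and the upper end with MS023, belong to MAGEA2 or MAGEA2B, whose SEs reached 0.209 with UNC0642. All 6 comparisons share the untreated libraries.

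TP-472 and UNC0642 gave no called member. With TP-472, 0 of 20 were called by edgeR and 0 by DESeq2, and 2 had an unadjusted p under 0.05 (GAGE7 and MAGEA10), beside 17% of all genes called higher and 14.3% lower. Leaving out untreated replicate 2 or 3 gave 1 call. Here and below, the share of all genes called with a library left out was not counted. With UNC0642, 0 of 20 were called by edgeR and 0 by DESeq2, 0 had an unadjusted p under 0.05, and 9.11% of all genes were called higher and 6.78% lower. PRAME, for example, was at 208.7 ± 2.56 CPM with UNC0642 and 202.0 ± 5.46 with TP-472 (n = 3), log2 fold changes of 0.061 (SE 0.0363) and 0.015 (SE 0.0364). EHMT1 and EHMT2 are known repressors of germline genes in other cell types.

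GSK-591, MS023 and GSK-484 each gave a few small calls. With GSK-591, 2 members rose and 2 fell, beside 17.5% and 14.6% of all genes. PRAME read 224.3, 231.9 and 223.7 CPM, all above the untreated libraries, a log2 fold change of 0.18 (SE 0.0366, adjusted p = 0.000772 by edgeR). MAGEA12 (0.15, adjusted p = 0.0239), MAGEA10 (-0.093, adjusted p = 0.0352) and SSX2IP (-0.25, adjusted p = 0.00171) were the others. PRAME was the call that held in all 3 fits: against untreated cells, with the GC trend removed, and, after removal, against the mean of the 4 remaining compounds without JQ-1 (log2 fold change 0.091, edgeR adjusted p = 0.0278). Leaving out untreated replicate 1 or GSK-591 replicate 2 left 2 calls.

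With MS023, 1 member rose and 1 fell, beside 21.9% and 19.9% of all genes. MAGEA10 read 142.0, 143.1 and 144.4 CPM, below all 3 untreated libraries, a log2 fold change of -0.18 (SE 0.0329, adjusted p = 0.00017 by edgeR) that held in all 3 fits. PRAME was higher by 0.11 (SE 0.0364, adjusted p = 0.0207), and with the GC trend removed by 0.041 (adjusted p = 0.415). Without untreated replicate 1, untreated replicate 2 or MS023 replicate 2, 1 member was called. With GSK-484, 1 rose and 1 fell, beside 11.1% and 7.6% of all genes. PRAME read 237.3, 220.1 and 211.6 CPM (log2 fold change 0.16, SE 0.0364, adjusted p = 0.00631 by edgeR), and SSX2IP fell by 0.16 on the log2 scale (SE 0.0540, adjusted p = 0.0382). Neither held with the GC trend removed (adjusted p = 0.0587 and 0.843). Leaving out untreated replicate 1, GSK-484 replicate 1 or GSK-484 replicate 2 left 1 call, and leaving out untreated replicate 3 gave 4.

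With the GC trend removed, members called were 0 higher and 1 lower for TP-472 (MAGEA10), 2 and 1 for GSK-591, 1 and 2 for MS023, and 0 and 0 for GSK-484 and UNC0642. The shares of all genes called in the same fits were 14.6%, 15.9%, 20.3%, 2.2% and 4.61%. Among the 5 compounds themselves, a joint test without untreated or JQ-1 libraries called 2 members, MAGEA10 (edgeR adjusted p = 0.0369) and PRAME (adjusted p = 0.00566), beside 37.4% of all genes. Leaving out TP-472 replicate 1 or 3, any MS023 replicate, or UNC0642 replicate 2 or 3 left 1 call. With the GC trend removed it called 4, again beside 37.4% of all genes, adding MAGEA4 and SSX2IP.

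**Figure D3:**
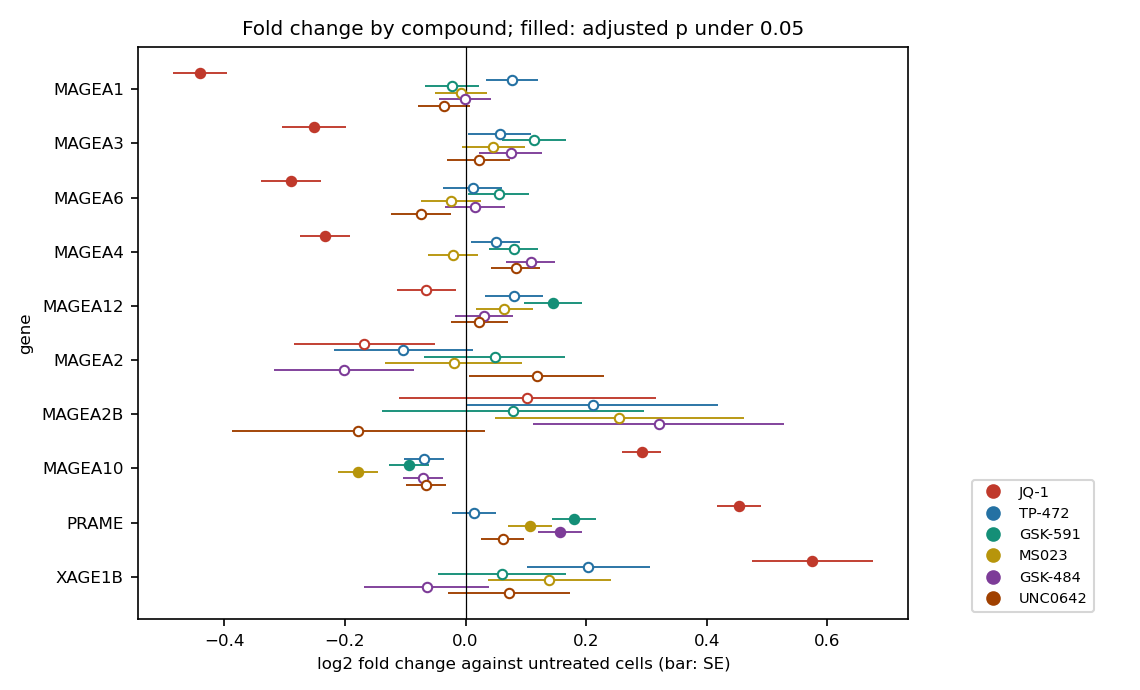
Log2 fold change against untreated cells with its SE for 10 members and 6 compounds; filled points have an adjusted p under 0.05 in the edgeR test. JQ-1 (red) lies furthest from 0 for MAGEA1, MAGEA3, MAGEA6, MAGEA4, MAGEA10, PRAME and XAGE1B, and the other 5 compounds lie between -0.20 and 0.32 for every gene shown.

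Genes that act on or with the members were read from lists chosen for their known roles. The counts with JQ-1 stand beside 35.4% of all genes higher and 37.2% lower, and no test of a list was made. The DNA methylation machinery fell with JQ-1: of 15 tested genes, 12 were lower, 2 higher and 1 not called (median log2 fold change -0.56, against -0.0077 over all genes). DNMT3A, which adds methyl groups to new sites, went from 12.1 ± 0.464 to 4.94 ± 0.775 CPM (SD, n = 3; log2 fold change -1.29, SE 0.120, adjusted p = 1.27e-09 by edgeR). TET1 and TET3, which oxidise methylated cytosine, fell by 1.14 (SE 0.145) and 1.07 (SE 0.0660) on the log2 scale. DNMT3A, TET1 and TET3 thus fell together, and they had the largest changes of the list. DNMT1, also a methyltransferase, changed by -0.11 on the log2 scale (SE 0.0379). With the GC trend removed, 11 were lower and 2 higher.

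Of 30 histone-modifying repressors of germline genes, 11 were higher and 13 lower with JQ-1 (median 0.016). The largest changes were in SUV39H1, which methylates histone H3 (log2 fold change -1.19), HDAC3, a histone deacetylase (1.16), and PCGF6, of a polycomb complex that silences germline genes (-1.13). Of 12 activators known at promoters of this kind, 3 were higher and 7 lower (median -0.27). MZF1 rose from 18.5 ± 2.06 to 44.9 ± 2.05 CPM, SOX9 fell from 38.6 ± 1.71 to 20.8 ± 0.791 CPM, and ETS1 rose from 230 ± 15.7 to 355 ± 3.44 CPM (SD, n = 3). CTCFL, an activator of these genes normally made in testis, did not pass the count filter.

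Of 10 tested protein partners, 4 were higher and 5 lower with JQ-1 (median -0.14). TRIM28, the ubiquitin ligase partner of MAGE proteins, rose from 418 ± 15.2 to 752 ± 11.6 CPM (SD, n = 3; log2 fold change 0.85, SE 0.0456, adjusted p = 7.75e-14 by edgeR). LNX1 changed by -1.14 and TCEB2, an elongin of the cullin ligase that takes PRAME, by 0.83 on the log2 scale. Among 9 tested type II MAGE genes, which are expressed in many tissues, 2 were higher and 4 lower (median -0.034). MAGEL2, under 0.4 CPM, changed by -1.41, and MAGED4 and MAGED4B, with identical values, by -0.75. Of 28 other cancer-testis genes tested, out of 59 in the table, 6 were higher and 14 lower (median -0.30). This list also holds cell division genes, and TTK, KIF2C, CEP55 and NUF2 were among the lower ones. Their log2 fold changes were -0.56, -0.41, -0.43 and -0.75. The counts of this list are therefore not read as a result about germline antigen genes. TEX14, of germ cell bridges, went from 0.128 ± 0.0473 to 0.895 ± 0.353 CPM, LY6K fell from 73.4 ± 4.92 to 15.7 ± 1.2 CPM and ROPN1B from 1.60 ± 0.133 to 0.470 ± 0.118 CPM (SD, n = 3).

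The same lists were counted with the other compounds. Over all genes the shares higher and lower were 17% and 14.3% for TP-472, 17.5% and 14.6% for GSK-591, 21.9% and 19.9% for MS023, 11.1% and 7.6% for GSK-484, and 9.11% and 6.78% for UNC0642. For the DNA methylation list, higher and lower calls were 2 and 4 with TP-472, 1 and 3 with GSK-591, 3 and 4 with MS023, 1 and 1 with GSK-484, 0 and 1 with UNC0642, of 15. For the repressors they were 9 and 7, 7 and 6, 9 and 8, 5 and 4, and 6 and 6 of 30, in that order of compounds. For the activators they were 2 and 6, 3 and 5, 3 and 7, 2 and 4, and 2 and 1 of 12. MZF1 rose with each of the 5, by 0.48, 0.51, 0.55, 0.49 and 0.35 on the log2 scale, and was at 0.27, 0.30, 0.25, 0.30 and 0.21 with the GC trend removed. For the partners they were 3 and 1, 2 and 1, 3 and 4, 2 and 3, and 2 and 3 of 10. TRIM28 rose with each of the 5, by 0.28, 0.34, 0.39, 0.24 and 0.16, and was at 0.13, 0.18, 0.17, 0.11 and 0.056 with the GC trend removed. For type II MAGE genes they were 1 and 0, 1 and 0, 3 and 1, 3 and 0, and 1 and 0 of 9. MAGED2 rose with each of the 5. With the GC trend removed, the UNC0642 calls of MZF1 (edgeR adjusted p = 0.0507) and MAGED2 (0.0726) and the GSK-484 (0.0659) and UNC0642 (0.323) calls of TRIM28 were lost. For the other cancer-testis genes they were 3 and 2, 4 and 8, 3 and 8, 1 and 6, and 2 and 3 of 28. List medians with these 5 compounds lay between -0.14 and 0.16. Many of these calls were lost with the GC trend removed: the 7 repressors lower with TP-472 became 0, and the 8 lower with MS023 became 0.

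**Figure D4:**
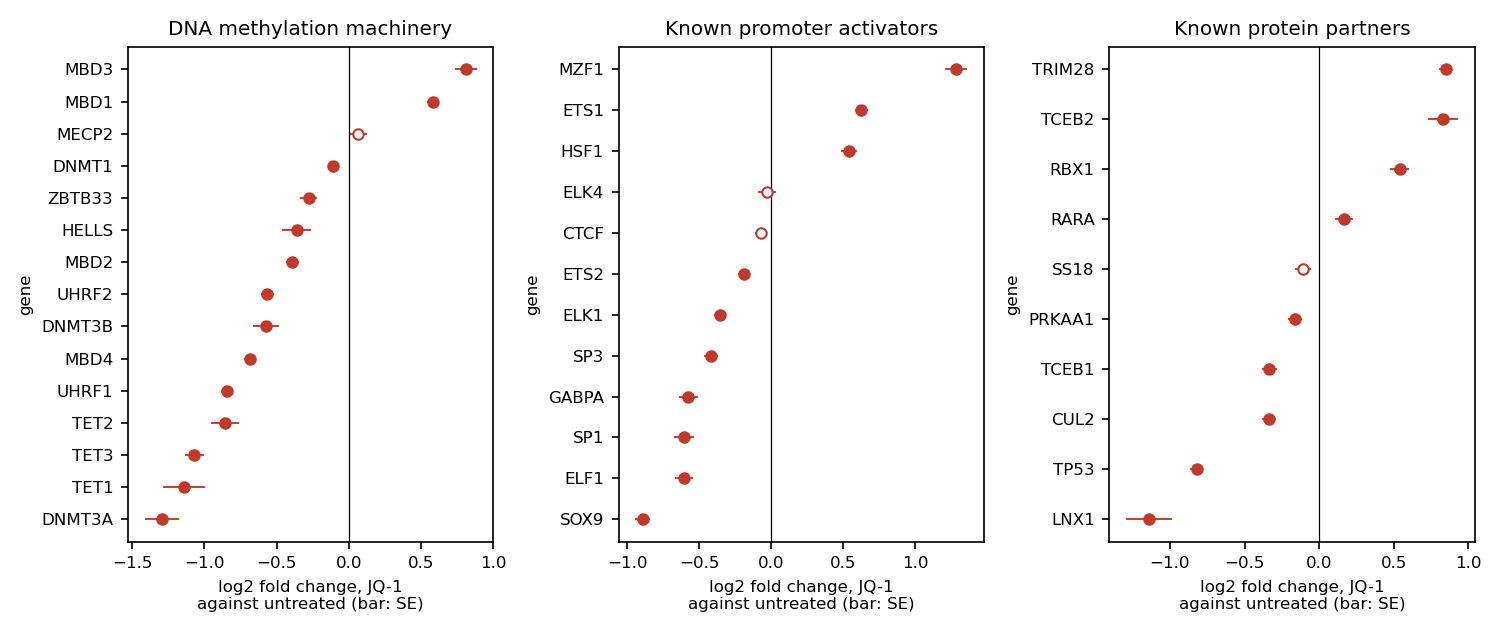
Log2 fold change with JQ-1 against untreated cells and its SE for the tested genes of 3 lists; filled points have an adjusted p under 0.05 in the edgeR test. Most DNA methylation genes lie left of 0, with MBD3 and MBD1 to the right, and the activators and partners lie on both sides.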

How the data were processed

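RNA-seq expected counts for 26475 genes in 21 libraries of SK-MEL-147 were deposited by the authors, 1 column per library. Per the submitters' processing notes, Bowtie2 2.1.0, RSEM 1.2.15 and build hg38 were used. Annotation, read length and strand setting: not given in the sources used here.

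Expected counts were rounded, kept where a gene had 10 or more in at least 3 libraries, scaled by TMM, and fitted in 1 model of 7 groups (R 4.3.3, edgeR 4.0.16, quasi-likelihood test, two-sided; fold changes with a prior count of 0.125). A gene was called where its p, adjusted by Benjamini-Hochberg over all genes tested, was under 0.05. CPM use TMM-scaled totals. Each SE of a log2 fold change is its absolute value divided by the square root of the F statistic of the test. The members and lists were chosen with earlier results of these data known, and the comparisons overlap in libraries. The text names members tested, and in each list at most 3 called genes per comparison with the largest change. Named beside them are DNMT1 and the cell division genes with JQ-1. TRIM28 is also followed with GSK-484 and UNC0642, where it ranked 4 among the called partners. Members with fractional counts are reported as uncertain; those with the most counts are given library by library with that limit.

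An alternative fit removed, per library, a loess curve of log2 CPM (prior count 2) over GENCODE 29 transcript GC content (span 0.3, 4 iterations). Of the 15287 genes tested, 14305 had a GC value. Genes without one, among them the members XAGE1E, GAGE7 and SSX6, had no trend removed. Other alternatives were DESeq2 1.42.0, RLE and total-count scaling, other filters, a replicate block, thinning, the groups alone, treated references, summed copies and leaving out each library. Tested on simulated data, the fit recovered changed genes as follows. Of the genes changed 1.2-fold, 43% (UNC0642) to 53% (TP-472) were recovered, and of those changed 2-fold, 92% (TP-472) to 96% (MS023). The changed genes were a small part of all genes and were drawn from those with higher counts. No GC trend was added in these runs. The rates therefore do not cover members at low counts, the wide change with JQ-1 or the GC trend of the data. Promoter windows are from RefSeq, and 50-base stretches and GC content from GENCODE 29. Python 3.11.15 and matplotlib 3.10.9 were used.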

Additional observations from a re-analysis of the deposited data

How the results depend on the processing

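Of 699 alternatives of the 30 called member results, 644 kept direction and call, 53 kept direction and lost the call, and 2 reversed. MAGEA10 with GSK-591 was at 0.0026 with the other treated groups as the reference, and PRAME with MS023 was at -0.016 with that reference and the GC trend removed. With JQ-1 against untreated cells, MAGEA1, MAGEA3, MAGEA4, MAGEA6, MAGEA10, MAGEA10-MAGEA5, PRAME, XAGE1B and XAGE1E kept their direction and call in all 20 alternatives.

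Counts of members called that moved were these. All genes tested numbered 15287 unless another number is given. For TP-472 (0), 1 was called with the GC trend removed, also with the replicate block, after thinning, and with the treated reference with or without GC removal. In that order, 2229, 2104, 4048 of 14374, 1688 and 1285 of all genes were called. For GSK-591 (4), 2 were called with GC removal and the replicate block, with the 2 groups alone and with the treated reference after GC removal, and 1 with the treated reference. Called among all genes were 2323, 3778 of 14376, 1484 and 1105, in that order. For MS023 (2), 1 was called with no filter and with the 2 groups alone, beside 6121 of 21776 and 5390 of 14552 genes. For GSK-484 (2), 0 were called with GC removal, also with the block, with the 2 groups alone and with the treated reference with or without GC removal, and 1 after thinning. Few of all genes were called in most of these fits: 337, 240, 9 of 14526, 37, 17 and 2195 of 14374, in that order. The 0 calls are thus no trait of the members. Among the 5 compounds (2), 4 were called with GC removal, also with the block, and 1 after thinning, beside 5714, 5468 and 4524 of 14374 genes. The causes were not tested. Leaving out 1 library at a time, counts ran from 10 to 15 (JQ-1), 0 to 1 (TP-472), 2 to 4 (GSK-591), 1 to 3 (MS023), 1 to 4 (GSK-484), 0 to 0 (UNC0642), 1 to 3 (among the 5) and 10 to 12 (JQ-1 against the other 5). The share of all genes called in these refits was not counted. Their moves are therefore not read as a trait of the members.

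Same-numbered libraries correlated only weakly, between -0.116 and 0.111, in their deviations from group means. With TP-472 and GSK-591, 6 of 6 libraries correlated best with their own number, and with JQ-1 0 of 6, with MS023 2, with GSK-484 2 and with UNC0642 1. Whether the numbers pair samples of TP-472 and GSK-591 with untreated ones is therefore not settled. The replicate block alone left all counts of calls as they were (11 for JQ-1, 4 for GSK-591). Added to GC removal, it took the count from 3 to 2 for GSK-591 and from 3 to 2 for MS023. With JQ-1 the SE of the log2 fold change was 0.266 for SSX1, at about 1 CPM, and 0.0364 for PRAME.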
